A study of Mus musculus with 12 samples.

Results

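Sterol and fatty acid synthesis genes were followed in MEF cells, the fibroblasts of mouse embryos. They were 34 genes chosen by name, 18 enzymes of sterol synthesis, 5 regulators of the SREBP pathway, 3 genes of sterol transport and 8 enzymes of fatty acid synthesis and desaturation. The table of the first experiment listed all 34 among 43280 rows, and 29 of them had a mean of at least 1 RPM (reads on a gene per 1000000 reads on all genes) and were tested among 11065 genes. The table of the second listed 31 of the 34 among 23930 rows, and 30 were tested among 10384 genes.

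The 12 libraries fell into 4 groups of 3, all of spontaneously immortalized MEF cells from C57BL/6 embryos. 2MUT cells stably expressed a FLAG-tagged human IDH2 mutant from a pMXs-puro retrovirus and had been selected in puromycin, and Control cells carried the empty virus after the same selection. Both are pools or lines of transduced cells whose clonal make-up is not given in the sources used here, and the viral promoter drives the mutant. 2-HG(+) cells were given 300 µM of membrane-permeant 2-HG, the metabolite made by mutant IDH enzymes, for 24 h, and 2-HG(-) cells were given DMSO by the labels and were non-treated by the methods. The comparisons asked what the mutant enzyme and what the metabolite alone do to gene expression. No library came from the cells with wild-type IDH2 that the study also made. Effects of the mutation and of added IDH2 protein therefore cannot be told apart in 2MUT cells. The methods say that experiments were done in triplicate and not whether the libraries of a group came from separate cultures, so p-values measure only the spread between these libraries, which may be technical.

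Depth was 6472439 to 7313602 reads per library in the experiment with 2MUT cells and 14959318 to 18363768 in the experiment with 2-HG. A level of 3 reads was 0.410 to 0.464 RPM in the former and 0.163 to 0.201 RPM in the latter, and this floor covers counting error only. The endogenous mouse Idh2, at 70.9 to 80.8 RPM in Control and 42.6 to 55.2 RPM in 2MUT, does not check the label, since the mutant is human. Fibroblast markers summed to 11459 to 12550 RPM in Control, 7881 to 8491 in 2MUT, 19738 to 21276 in 2-HG(-) and 13547 to 14771 in 2-HG(+) cells, with 6 of 7 tested markers lower in 2MUT, and 1 higher and 4 lower with 2-HG. Adipocyte markers, which bear on lipid genes, summed to 55.4 to 61.7 RPM in Control, 43.6 to 53.4 in 2MUT, 5.55 to 8.88 in 2-HG(-) and 2.51 to 3.25 in 2-HG(+) cells. Nearly all of this was 1 gene, Fabp4, at 54.8 to 60.7 RPM in Control and 42.5 to 53.4 in 2MUT. It was the only adipocyte marker tested. Fabp4 was not called in 2MUT (limma adjusted p = 0.11) and fell with 2-HG (log2 fold change -1.02, limma adjusted p = 0.0024). The adipocyte-defining Adipoq was at 0 in all libraries of 3 of the 4 groups, and the epithelial, endothelial and macrophage lists summed to at most 14.6 RPM in any library, with Epcam at 0 in all of them. Markers of dividing cells moved in opposite directions. Their sum went from 606 to 716 RPM in Control to 148 to 176 in 2MUT, with 7 of 7 tested markers lower. With 2-HG it went from 288 to 313 in 2-HG(-) to 520 to 591 in 2-HG(+) cells, with 7 of 7 higher. Ccnb1 was at 0 in all Control and 2MUT libraries alike, and was not listed in the second experiment. The part of the dividing-cell and fibroblast markers in the results below was not tested. In bulk RNA, fewer cells of a type and less RNA per cell cannot be told apart.

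Cells make cholesterol from acetyl-CoA through mevalonate, squalene and lanosterol, and fatty acids from the same acetyl-CoA through malonyl-CoA. SREBP proteins, held in the endoplasmic reticulum by Scap and the Insig proteins when sterol is plentiful, are cut and enter the nucleus when it is scarce, and switch on most of these enzymes. Liver X receptors, bound by oxysterols, switch on the exporters Abca1 and Abcg1 when sterol is plentiful.

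The stretches of DNA just before the start sites carry the short elements by which SREBP and its partners are known to act. RefSeq entries on GRCm38.p6 were found for 26 of the 34 members, with 34 entries in all, and the 250 bases before each start were searched on both strands. The sterol element core TCACNCCA, where N is any base, occurred in 3 of 34 entries (8.82%), against 3.67% of 32851 promoter entries of all genes. The NF-Y letters CCAAT occurred in 20 entries (58.8%, against 33.8%) and the Sp1 letters GGGCGG in 25 (73.5%, against 32.7%). The E-box CACGTG, which SREBP and other factors bind, occurred in 6 entries (17.6%, against 6.02%). No matches of different motifs overlapped in these entries. Of the 18 entries of sterol enzymes, 14 held CCAAT and 15 held GGGCGG. Of the 5 entries of fatty acid enzymes, 1 held CCAAT (under the share of all entries), 2 held GGGCGG, and 0 held the sterol element core or the E-box. A match is a description and not a site, and its absence says only that these letters are not in this window. The windows below belong to members whose levels are given in every library, and to Hmgcs1, which holds the same sterol element as Srebf2. Each is read 5′ to 3′ on the gene's strand and stops before the annotated transcript start of GENCODE or RefSeq, whichever comes first, and capitals mark matches to the motifs.
Srebf2, chr15:82147019-82147180, forward strand: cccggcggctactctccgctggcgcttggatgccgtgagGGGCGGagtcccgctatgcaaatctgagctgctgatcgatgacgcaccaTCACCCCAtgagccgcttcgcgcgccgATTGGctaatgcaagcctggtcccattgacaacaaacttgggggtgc
Hmgcs1, chr13:119690101-119690350, forward strand: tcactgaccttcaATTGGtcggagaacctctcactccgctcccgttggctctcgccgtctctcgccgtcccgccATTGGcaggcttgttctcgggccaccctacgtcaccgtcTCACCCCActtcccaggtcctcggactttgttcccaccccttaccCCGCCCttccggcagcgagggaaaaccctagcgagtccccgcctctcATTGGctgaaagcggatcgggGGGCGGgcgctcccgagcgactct
Pmvk, chr3:89454291-89454540, forward strand: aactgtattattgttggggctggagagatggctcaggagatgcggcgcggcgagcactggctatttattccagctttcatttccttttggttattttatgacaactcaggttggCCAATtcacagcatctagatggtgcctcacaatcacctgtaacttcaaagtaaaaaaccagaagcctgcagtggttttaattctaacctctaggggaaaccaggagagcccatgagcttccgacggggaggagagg
Mvd, chr8:122443423-122443672, reverse strand: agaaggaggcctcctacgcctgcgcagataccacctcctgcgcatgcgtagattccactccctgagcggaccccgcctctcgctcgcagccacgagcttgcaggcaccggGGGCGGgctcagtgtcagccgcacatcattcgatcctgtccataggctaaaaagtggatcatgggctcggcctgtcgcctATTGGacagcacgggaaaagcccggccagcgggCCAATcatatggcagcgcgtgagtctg
Cyp51, chr5:4104747-4104947, reverse strand: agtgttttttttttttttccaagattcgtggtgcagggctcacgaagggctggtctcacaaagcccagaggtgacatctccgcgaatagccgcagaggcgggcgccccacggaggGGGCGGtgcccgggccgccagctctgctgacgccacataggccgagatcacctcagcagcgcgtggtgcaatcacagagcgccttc
Abca1, chr4:53159896-53160145, reverse strand: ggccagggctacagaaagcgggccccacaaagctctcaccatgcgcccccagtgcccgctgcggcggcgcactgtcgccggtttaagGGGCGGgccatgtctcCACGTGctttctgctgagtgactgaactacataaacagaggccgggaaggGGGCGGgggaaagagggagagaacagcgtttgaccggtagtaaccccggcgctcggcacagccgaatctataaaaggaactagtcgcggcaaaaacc
The capitals TCACCCCA, 162 to 155 bases before the RefSeq start in Srebf2 and 137 to 130 before it in Hmgcs1, are the same sterol element core. Srebf2 also holds CCAAT, read on the other strand as ATTGG, and GGGCGG. Mvd holds CCAAT on each strand. Cyp51 holds GGGCGG in the stretch shown and CCAAT 29 to 25 bases before the RefSeq start, within the GENCODE transcript and so not shown. Abca1 holds the E-box, 147 to 142 bases before the start, and GGGCGG. The remaining sterol element, TCACTCCA, was in Msmo1. No entry was found for Fdps, Fdft1, Sqle, Stard4, Abcg1, Scd1, Scd2 and Fads1.

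In 2MUT cells 9 of the 29 tested members fell and 3 rose. Those that fell were Srebf2, 5 enzymes from mevalonate to lanosterol and just beyond it (Pmvk, Mvd, Fdft1, Lss and Cyp51), the sterol carrier Stard4 and the desaturases Scd1 and Fads1. Sqle, Ebp and Abca1 rose. The members called made up 41.4% of those tested, against 33.8% of all genes, with 31.0% lower against 17.3% and 10.3% higher against 16.5%. Their median log2 fold change was -0.15, and that of all genes was 0.01. With 2-HG the calls were fewer and mostly on other members. 5 of the 30 tested members rose (Hsd17b7, Sc5d, Dhcr7, Fads1 and Fads2) and 2 fell (Hmgcs1 and Abca1), which was 23.3% against 32.8% of all genes, with 16.7% higher against 16.1% and 6.67% lower against 16.7%. The median was 0.12, against -0.02 for all genes. In these libraries 1 member fell in 2MUT and rose with 2-HG, Fads1, and 1 rose in 2MUT and fell with 2-HG, Abca1. Of the 29 members tested in both comparisons, 0 were called by limma in the same direction in both and 2 in opposite directions (6.90%), against 4.57% and 9.38% of the 9594 genes tested in both.

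**Figure D1:**
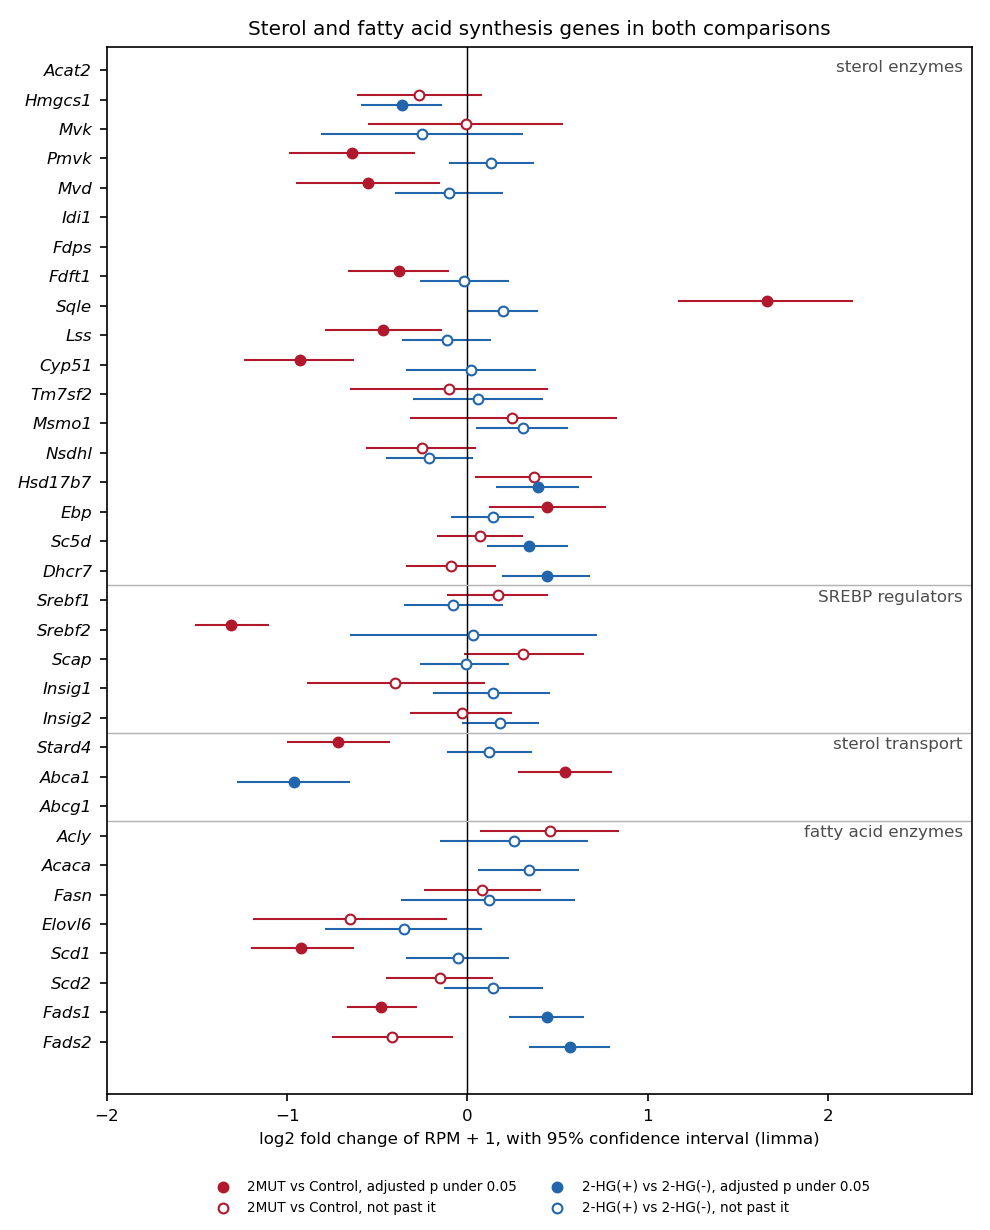
Log2 fold changes of RPM + 1 with 95% confidence intervals from limma for every tested member, in 2MUT against Control (red) and 2-HG(+) against 2-HG(-) (blue), with filled points past an adjusted p of 0.05. Names with no point were under the filter or not listed. Srebf2 lies at -1.31 and Sqle at 1.66 in 2MUT cells, and Abca1 lies on opposite sides of 0 in the comparisons.

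Among the regulators, Srebf2, which encodes the SREBP mainly tied to sterol synthesis, was the one that changed. It was at 213, 198 and 202 RPM in Control and at 81.7, 81.0 and 82.6 RPM in 2MUT. The groups stood far apart and the 2MUT libraries were nearly level. The mean fell from 204 ± 7.63 (SD, n = 3) to 81.8 ± 0.80 RPM, 0.401 times Control (log2 fold change -1.31, SE 0.09, limma adjusted p = 3.3e-06). With 2-HG the same gene was at 139, 184 and 104 RPM in 2-HG(-) and at 235, 132 and 91.7 RPM in 2-HG(+) cells. The groups overlapped and the libraries of each spread widely, so the fold change of 0.03 has an interval of -0.65 to 0.72. Left-out fits moved it between -0.33 and 0.35.

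Srebf1, which encodes the SREBP tied to fatty acid synthesis, was at 79.6 ± 10.7 RPM in Control and 89.3 ± 8.54 in 2MUT (SD, n = 3), and at 37.6 ± 4.81 and 35.4 ± 1.61 RPM in 2-HG(-) and 2-HG(+) cells. Neither difference passed the test. Scap, the escort of SREBP, had log2 fold changes of 0.31 and -0.01, and passed in 2MUT only without Control replicate 2 (0.48, limma adjusted p = 0.024, over alternatives 0.024 to 0.34). Insig1, itself an SREBP target, stood at -0.40 with an interval of -0.89 to 0.10 in 2MUT and at 0.14 with one of -0.19 to 0.46 with 2-HG. Insig2 stood at -0.03 and 0.18. In 2MUT 1 of the 5 regulators was called, where 33.8% of all genes were. With 2-HG 0 of the 5 were called by limma, edgeR or DESeq2, where limma called 32.8% of all genes, and 0 had an unadjusted p under 0.05.

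Of the 7 enzymes from acetyl-CoA to the isoprenoid units, 4 were tested, and 2 of these fell in 2MUT (17.3% of all genes did). Pmvk, which adds the second phosphate to mevalonate, was at 40.7, 48.0 and 35.8 RPM in Control and at 29.5, 27.5 and 21.9 RPM in 2MUT. All 2MUT libraries were below all Control libraries. The mean was 0.634 times Control (log2 fold change -0.64, SE 0.16, limma adjusted p = 0.0096), and the call was lost with the unmoderated test (adjusted p = 0.077, over alternatives 0.0013 to 0.077). In the second experiment Pmvk was at 44.5, 53.5 and 48.6 RPM in 2-HG(-) and at 53.4, 52.7 and 54.4 RPM in 2-HG(+) cells. The groups overlapped, and the interval of the log2 fold change was -0.10 to 0.37.

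Mvd, which takes the carboxyl group off mevalonate diphosphate, was at 16.7, 19.9 and 16.5 RPM in Control and at 11.1, 9.81 and 14.7 RPM in 2MUT. The groups did not overlap, with 1 2MUT library close to Control, and the mean was 0.67 times Control (log2 fold change -0.55, SE 0.18, limma adjusted p = 0.037). The call was lost without Control replicate 1 (-0.59, adjusted p = 0.06), Control replicate 2 (-0.47, 0.11), 2MUT replicate 1 (-0.52, 0.099) or 2MUT replicate 2 (-0.44, 0.14), with adjusted p from 0.021 to 0.14 over alternatives. With 2-HG it was at 14.9, 14.8 and 16.4 RPM against 12.3, 15.2 and 15.6 RPM. The groups overlapped.

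Hmgcs1, the synthase that makes HMG-CoA, fell with 2-HG from 111 ± 3.04 to 86.4 ± 8.00 RPM (SD, n = 3; log2 fold change -0.36, SE 0.10, limma adjusted p = 0.022), with no overlap of the groups. That call was lost without 2-HG(-) replicate 1 (-0.35, adjusted p = 0.06), 2-HG(-) replicate 3 (-0.35, 0.079) or 2-HG(+) replicate 1 (-0.28, 0.052), with adjusted p from 0.0055 to 0.079 over alternatives. In 2MUT its change was -0.27 (adjusted p = 0.21) and passed only without Control replicate 2 (-0.43, adjusted p = 0.046, over alternatives 0.046 to 0.49). Mvk, the mevalonate kinase, was at 14.0 ± 5.01 and 13.3 ± 1.53 RPM in Control and 2MUT, and its spread leaves an interval of -0.55 to 0.53. Acat2, Idi1 and Fdps had at most 2 reads over all 6 libraries of the first experiment, so no comparison was made for them. Which stretch of each transcript these rows report on is not given in the sources used here, and the cause of the low values was not tested. They were not analysed here in the second experiment.

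**Figure D2:**
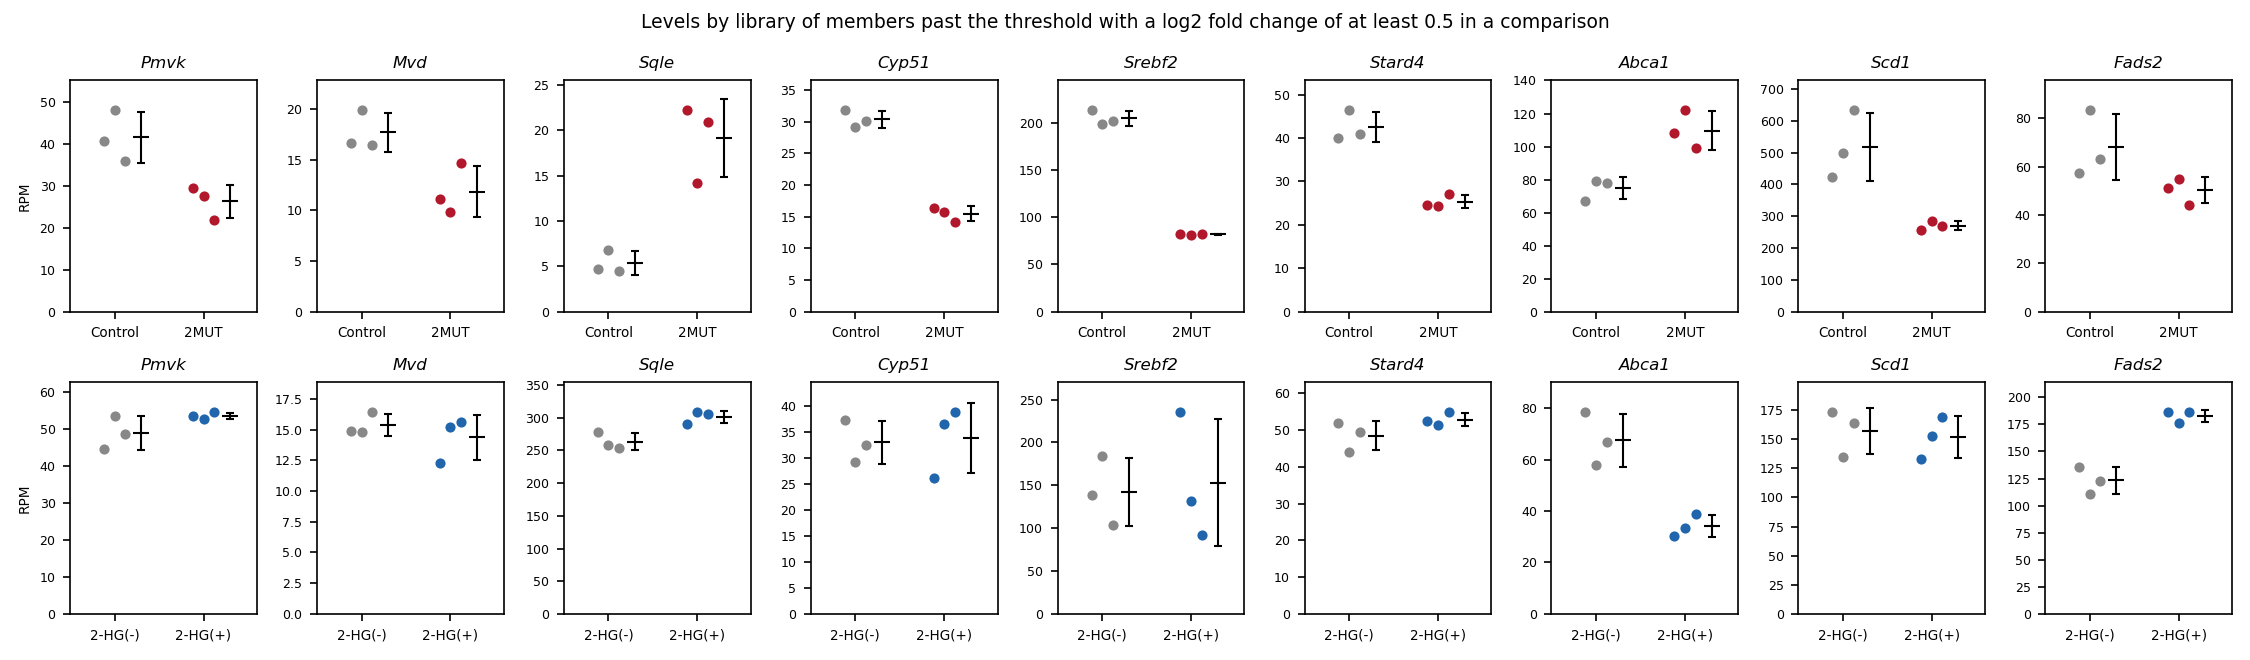
RPM in each library (points) of the 9 members past the threshold with a log2 fold change of at least 0.5 in either comparison, with the mean and SD as bars, in Control and 2MUT (top) and in 2-HG(-) and 2-HG(+) cells (bottom). Each axis starts at 0 and has its own scale. Srebf2, Cyp51, Stard4 and Scd1 separate fully in the top row and overlap in the bottom row.

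Of the 3 enzymes from farnesyl diphosphate to lanosterol, the middle one moved against the others. Sqle, the oxygenase that turns squalene into its epoxide, was at 4.74, 6.84 and 4.51 RPM in Control and at 22.2, 14.2 and 20.9 RPM in 2MUT. Every 2MUT library was above every Control library, and the mean rose from 5.36 ± 1.28 to 19.1 ± 4.31 RPM (SD, n = 3), 3.57 times Control (log2 fold change 1.66, SE 0.22, limma adjusted p = 0.00023). It was the largest change of any tested member in either comparison. Fdft1, the squalene synthase before it, fell from 41.0 ± 3.03 to 31.3 ± 2.04 RPM (log2 fold change -0.38, SE 0.13, limma adjusted p = 0.04), and Lss, the cyclase after it, from 34.5 ± 3.09 to 24.8 ± 3.26 RPM (-0.47, SE 0.15, adjusted p = 0.03). Neither overlapped between groups, which is no further support beyond the test that called them.

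These smaller falls lost their calls in several fits with 1 library fewer, at folds near those of all 6 libraries. Fdft1 lost its call without Control replicate 2 (-0.39, adjusted p = 0.071), Control replicate 3 (-0.32, 0.11), 2MUT replicate 1 (-0.41, 0.068), 2MUT replicate 2 (-0.39, 0.086) or 2MUT replicate 3 (-0.33, 0.14), with adjusted p from 0.032 to 0.14 over alternatives. Lss lost it without Control replicate 2 (-0.40, 0.093), 2MUT replicate 2 (-0.52, 0.052) or 2MUT replicate 3 (-0.36, 0.12), with adjusted p from 0.022 to 0.12. Sqle kept its call in all 18 alternatives of the comparison, with left-out values from 1.54 to 1.85.

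All 3 of these enzymes were called in 2MUT, where 33.8% of all genes were. With 2-HG 0 of the 3 were called by limma, edgeR or DESeq2, where limma called 32.8% of all genes, and 0 had an unadjusted p under 0.05. Sqle was at 278, 259 and 253 RPM in 2-HG(-) and at 291, 308 and 306 RPM in 2-HG(+) cells. The groups did not overlap, but the difference of 0.20 on the log2 scale did not pass the test (SE 0.09, limma adjusted p = 0.12). Fdft1 stood at -0.02 and Lss at -0.11. Sqle stood at 5.36 RPM in Control and 263 RPM in 2-HG(-) cells. Which stretch of the transcript each row reports on is not given in the sources used here, so it was not tested whether the 3.57-fold rise in 2MUT and the small difference with 2-HG are measured on the same target.

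After lanosterol, Cyp51, the demethylase that takes the first methyl group off lanosterol, was at 31.8, 29.2 and 30.1 RPM in Control and at 16.4, 15.8 and 14.2 RPM in 2MUT. The groups were tight and far apart. The mean was 0.509 times Control (log2 fold change -0.93, SE 0.14, limma adjusted p = 0.00049). With 2-HG it was at 37.4, 29.2 and 32.5 RPM against 26.2, 36.5 and 38.8 RPM, with overlap and an interval of -0.34 to 0.38.

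Ebp, the isomerase that shifts the double bond of the sterol ring, rose in 2MUT from 44.0 ± 8.22 to 59.7 ± 5.64 RPM (SD, n = 3; log2 fold change 0.44, SE 0.15, limma adjusted p = 0.038). The call was lost without Control replicate 1 (0.33, adjusted p = 0.12), Control replicate 3 (0.41, 0.056), 2MUT replicate 1 (0.45, 0.091), 2MUT replicate 2 (0.37, 0.14) or 2MUT replicate 3 (0.51, 0.052), with adjusted p from 0.011 to 0.14 over alternatives. With 2-HG its change was 0.14. Hsd17b7, a ketoreductase of the C4 demethylation, had similar changes in both comparisons, 0.37 in 2MUT (adjusted p = 0.076) and 0.39 with 2-HG (adjusted p = 0.017), and the difference of these was -0.02 with an interval of -0.38 to 0.33.

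With 2-HG 3 of the 8 enzymes after lanosterol rose (37.5%, against 16.1% of all genes), with a median change of 0.22 against -0.02 for all genes. Dhcr7, the last reductase on the way to cholesterol, rose from 45.5 ± 3.19 to 62.0 ± 5.02 RPM (SD, n = 3; log2 fold change 0.44, SE 0.11, limma adjusted p = 0.013). Sc5d, the desaturase just before it, rose from 84.7 ± 6.96 to 107 ± 5.81 RPM (0.34, SE 0.10, adjusted p = 0.03). Hsd17b7 rose from 31.4 ± 1.27 to 41.5 ± 1.95 RPM (0.39, SE 0.10). None of the 3 overlapped between groups, which is no further support, since they are named for passing the test.

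These calls too were lost in some fits with 1 library fewer, with log2 fold changes of 0.27 to 0.41. Dhcr7 lost it without 2-HG(+) replicate 2 (0.39, limma adjusted p = 0.063), and Hsd17b7 without 2-HG(-) replicate 3 (0.41, 0.052) or 2-HG(+) replicate 2 (0.35, 0.084). Sc5d lost it without 2-HG(-) replicate 1 (0.34, 0.066), 2-HG(-) replicate 3 (0.27, 0.12), 2-HG(+) replicate 1 (0.31, 0.063) or 2-HG(+) replicate 2 (0.32, 0.1). Over all alternatives their adjusted p ran to 0.063, 0.084 and 0.12, from 0.00051, 0.0026 and 0.021. Without 2-HG(+) replicate 2 the members called higher went from 5 to 2, and without 2-HG(-) replicate 3 to 3. Over all genes those called higher went from 1668 of 10384 to 1146 of 10397 and 1180 of 10359 in the same fits.

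The other enzymes after lanosterol did not pass in either comparison. Msmo1, a methyl oxidase, had a log2 fold change of 0.31 with 2-HG, with no overlap (limma adjusted p = 0.067), and passed without 2-HG(+) replicate 1 (0.39, adjusted p = 0.025) and in 5 other fits, with adjusted p from 0.011 to 0.2 over alternatives. Nsdhl, the dehydrogenase of the same step, had -0.25 in 2MUT and -0.21 with 2-HG. Tm7sf2, a sterol reductase, was low in both experiments, at 3.72 to 5.07 RPM in group means, with changes of -0.10 and 0.06.

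The 2 sterol transport genes tested, Stard4 and Abca1, were both called in 2MUT, where 33.8% of all genes were. With 2-HG only Abca1 was called, where 32.8% of all genes were. Stard4, a carrier that moves cholesterol between membranes, was at 40.0, 46.4 and 40.9 RPM in Control and at 24.6, 24.4 and 27.1 RPM in 2MUT. The groups stood apart, and the mean was 0.598 times Control (log2 fold change -0.72, SE 0.13, limma adjusted p = 0.0016). With 2-HG it was at 52.0, 44.1 and 49.4 RPM against 52.4, 51.3 and 54.8 RPM, with overlap.

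Abca1, the exporter that hands cholesterol to lipid-poor apolipoprotein, went in opposite directions. It was at 67.2, 79.3 and 78.2 RPM in Control and at 108, 122 and 98.9 RPM in 2MUT, without overlap (log2 fold change 0.54, SE 0.12, limma adjusted p = 0.005). With 2-HG it was at 78.3, 57.7 and 66.7 RPM in 2-HG(-) and at 30.1, 33.4 and 38.8 RPM in 2-HG(+) cells. Again the groups did not overlap, and the mean was 0.505 times that of 2-HG(-) cells (-0.96, SE 0.14, adjusted p = 0.00081). Abca1 kept its call in all 18 alternatives of the former comparison and all 19 of the latter.

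Its partner Abcg1, which exports sterol to formed lipoprotein particles, had too few reads to pass the filter. It had 1, 0 and 0 reads in Control and 7, 5 and 4 reads in 2MUT, a ratio of levels of 16.4 with a 95% counting interval of 2.55 to 688. In the second experiment its reads numbered 27, 17 and 16 without 2-HG, and fell to 5, 2 and 4 with it, a ratio of 0.195 with an interval of 0.0923 to 0.374. The libraries of each pair of groups did not overlap, and the directions were those of Abca1. With no filter, limma gave log2 fold changes of RPM + 1 of 0.76 (adjusted p = 0.0063) and -0.82 (adjusted p = 0.0013). The intervals cover counting error only.

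**Figure D3:**
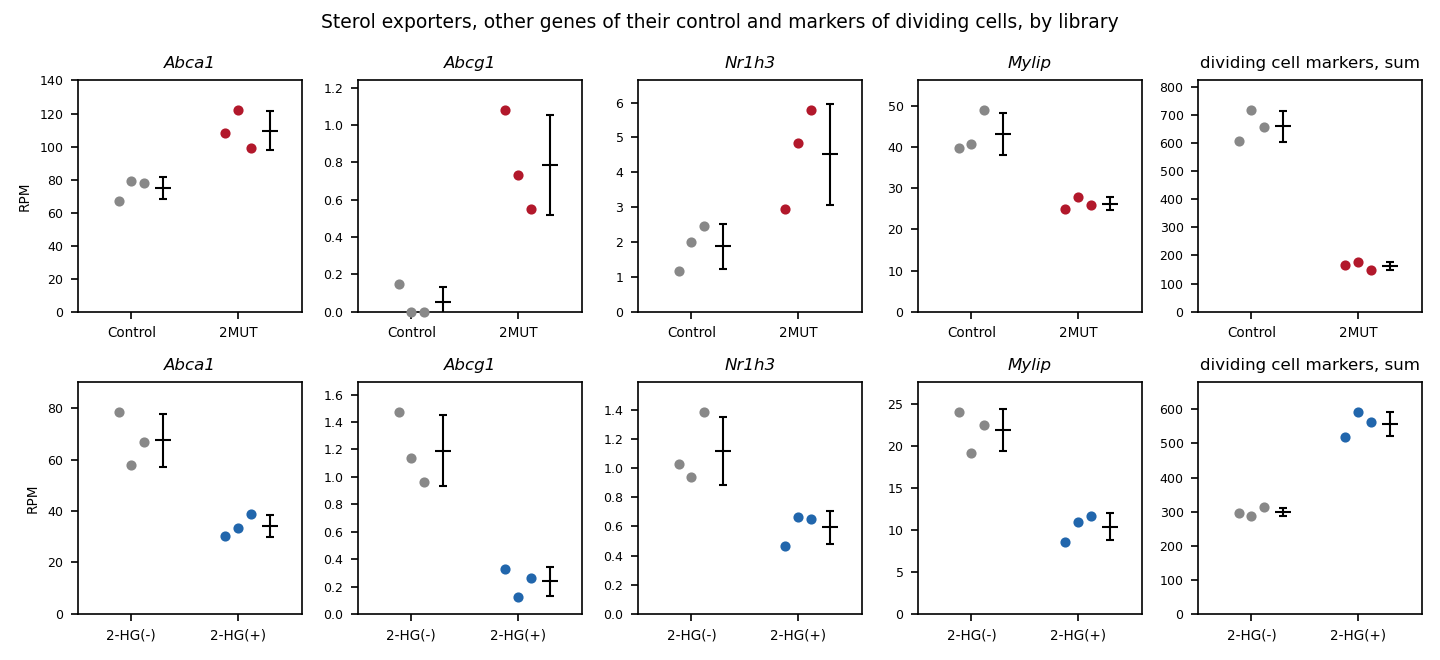
RPM by library (points) with mean and SD (bars) of the sterol exporters Abca1 and Abcg1, the oxysterol receptor Nr1h3, its target Mylip and the sum of the markers of dividing cells, in Control and 2MUT (top) and in 2-HG(-) and 2-HG(+) cells (bottom). Abca1, Abcg1 and Nr1h3 are higher in 2MUT and lower in 2-HG(+) libraries, Mylip is lower in both, and the dividing-cell sum falls in 2MUT and rises with 2-HG.

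Of the fatty acid enzymes, 2 of the 7 tested fell in 2MUT (Scd1 and Fads1; 28.6%, against 17.3% of all genes) and 0 rose. With 2-HG 2 of the 8 tested rose (Fads1 and Fads2; 25.0%, against 16.1%) and 0 fell. The shares called in either direction were below the 33.8% and 32.8% of all genes. Scd1, which puts the first double bond into saturated acyl chains, was at 423, 498 and 633 RPM in Control and at 257, 286 and 268 RPM in 2MUT. The Control libraries spread more than the 2MUT libraries, with no overlap, and the mean was 0.522 times Control (log2 fold change -0.92, SE 0.13, limma adjusted p = 0.00037). With 2-HG it was at 173, 135 and 164 RPM against 133, 153 and 169 RPM, with overlap and an interval of -0.34 to 0.23. Scd2, its close relative on the same chromosome, stood at -0.15 in 2MUT and 0.14 with 2-HG, neither past the test. Reads of such related genes could be shared between them, depending on the targets.

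Fads1 and Fads2, the delta-5 and delta-6 desaturases of polyunsaturated fatty acids, moved as a pair with 2-HG. Fads2 was at 136, 111 and 123 RPM in 2-HG(-) and at 186, 176 and 186 RPM in 2-HG(+) cells. The 2-HG(+) libraries were close together and all above (1.48 times, log2 fold change 0.57, SE 0.10, limma adjusted p = 0.0025). Fads1 rose from 169 ± 8.14 to 230 ± 16.0 RPM (SD, n = 3; 0.44, SE 0.09, adjusted p = 0.0061). In 2MUT cells Fads1 fell from 251 ± 13.1 to 180 ± 3.05 RPM (-0.48, SE 0.09, adjusted p = 0.0019). Fads2 was at 57.3, 83.3 and 63.2 RPM in Control and at 51.3, 55.0 and 44.3 RPM in 2MUT. The groups did not overlap, but the change of -0.42 did not pass (adjusted p = 0.054). It passed without Control replicate 1 (-0.53, 0.029), without Control replicate 3 (-0.46, 0.039) and in 3 other fits, with adjusted p from 0.025 to 0.19 over alternatives.

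Fasn, the fatty acid synthase, was at 111 ± 24.6 and 116 ± 1.62 RPM in Control and 2MUT, and its changes of 0.08 and 0.12 did not pass. Acly, which makes acetyl-CoA from citrate, had 0.46 in 2MUT (limma adjusted p = 0.064) and 0.26 with 2-HG, and passed in 2MUT without Control replicate 3 (0.62, 0.0057) and in 2 other fits, with adjusted p from 0.0057 to 0.26 over alternatives. Elovl6, the elongase of palmitate, had -0.65 in 2MUT (adjusted p = 0.061) and passed without Control replicate 1 (-0.81, 0.045) or 2MUT replicate 2 (-0.89, 0.022) and in 1 other fit, with adjusted p from 0.022 to 0.2. With 2-HG it had -0.35. Acaca, the acetyl-CoA carboxylase, had 16 reads in all in the first experiment and group means of 31.2 and 39.8 RPM in the second, a gap whose cause was not tested. With 2-HG it stood at 0.34 with no overlap of the groups (adjusted p = 0.06), and passed without 2-HG(+) replicate 1 (0.42, 0.029) and in 5 other fits, with adjusted p from 0.021 to 0.17.

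The changes in 2MUT and with 2-HG were then compared within 1 model over the 12 libraries. They differed for 10 of the 29 members tested in both (34.5%, against 39.4% of 9594 genes). The signed log2 fold change was lower in 2MUT than with 2-HG for 8 (27.6%, against 19.5%). It was higher for 2 (6.90%, against 19.9%). A lower signed change can be the larger in size, as for Srebf2 (-1.31 in 2MUT and 0.03 with 2-HG). The share called was near that of all genes. Without Control replicate 2 the number with a higher signed change in 2MUT went from 2 to 4, with Ebp (0.45, limma adjusted p = 0.046) and Scap (0.49, 0.023) added. Of these 10, Abca1 had the largest difference, 1.50 on the log2 scale (SE 0.19, limma adjusted p = 3.9e-05), since its changes had opposite signs. Sqle differed by 1.46 (SE 0.23, adjusted p = 0.00021), with the doubt about its targets given above. Srebf2 differed by -1.34 (SE 0.37, adjusted p = 0.01), with the wide spread of the 2-HG libraries in its error, and lost the call with the unmoderated test (adjusted p = 0.053, over alternatives 0.0011 to 0.053).

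Fads2, Fads1, Cyp51, Scd1, Stard4, Pmvk and Dhcr7 differed by -0.98, -0.92, -0.95, -0.87, -0.84, -0.77 and -0.53. For Fads1 both changes were past the threshold with opposite signs. For Cyp51, Scd1, Stard4 and Pmvk the fall was in 2MUT, and for Dhcr7 and Fads2 the rise was with 2-HG. All 10 differences kept their call with each library left out. For Mvd, Fdft1, Lss, Ebp, Sc5d, Hmgcs1 and Hsd17b7, called in 1 comparison, the difference between comparisons did not pass, and the interval for Mvd was -0.93 to 0.02.

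**Figure D4:**
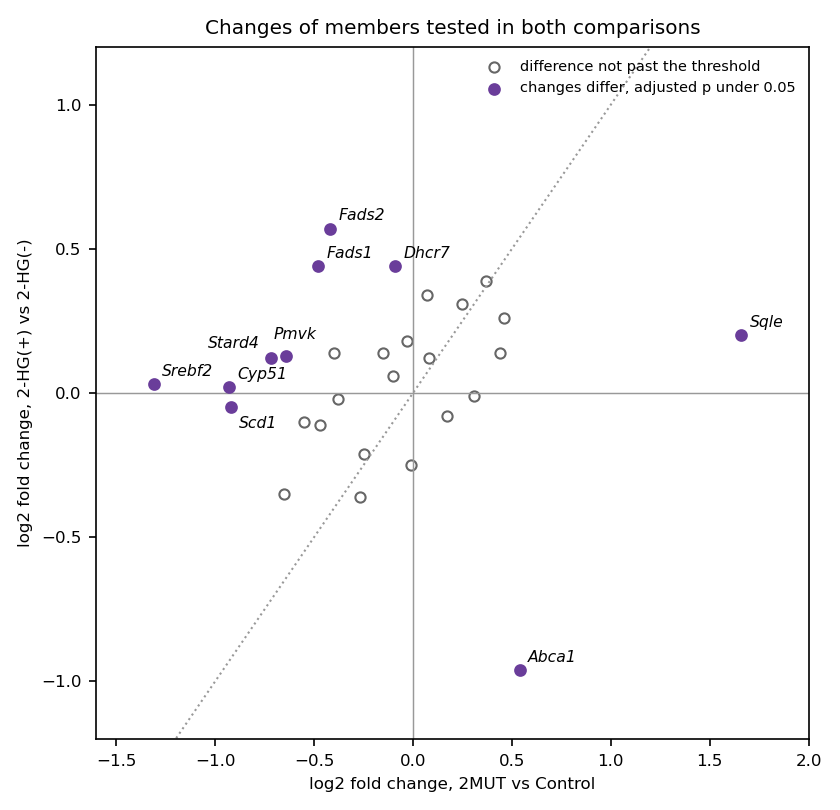
Log2 fold change with 2-HG against log2 fold change in 2MUT for the 29 members tested in both, with filled, named points where the changes differ (limma adjusted p under 0.05) and a dotted line of equal change. Of the named points, 8 lie above the line and Sqle and Abca1 lie below it.

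Other genes of sterol and fatty acid metabolism were followed in a list of 41. In 2MUT, 8 of 39 tested rose (20.5%, against 16.5% of all genes) and 8 fell (20.5%, against 17.3%), with a median of 0.14. With 2-HG, 10 of 38 rose (26.3%, against 16.1%) and 4 fell (10.5%, against 16.7%), with a median of 0.05. The 4 largest changes in 2MUT past the threshold were those of Nr1h3, the liver X receptor alpha (0.93, SE 0.28), Mid1ip1, an activator of acetyl-CoA carboxylase (-0.91, SE 0.27), Lpin1, a phosphatidate phosphatase (-0.72, SE 0.10), and Acacb, the second acetyl-CoA carboxylase (-0.70, SE 0.20). With 2-HG they were those of Ch25h, which makes the oxysterol 25-hydroxycholesterol (-1.36, SE 0.13), Mid1ip1 (1.16, SE 0.23), Mylip, a ubiquitin ligase induced by liver X receptors (-1.01, SE 0.15), and Me1, the malic enzyme (0.69, SE 0.17).

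Genes around the exporters, chosen after their values were seen, did not all move with them. Nr1h3 was at 1.18, 1.99 and 2.46 RPM in Control and at 2.94, 4.83 and 5.78 RPM in 2MUT, without overlap, which is the direction of Abca1. With 2-HG it was near 1 RPM and under the filter, at 1.03, 0.936 and 1.38 RPM against 0.463, 0.661 and 0.653 RPM. The other liver X receptor, Nr1h2, was not called in 2MUT (0.16, SE 0.15, limma adjusted p = 0.42) and fell with 2-HG (-0.61, SE 0.16, adjusted p = 0.018). Mylip, at 39.7, 40.9 and 49.0 RPM in Control, was at 24.9, 28.0 and 25.9 RPM in 2MUT, against the direction of Abca1 (-0.69, SE 0.13, limma adjusted p = 0.0025). With 2-HG Mylip was at 24.0, 19.2 and 22.5 RPM against 8.59, 10.9 and 11.7 RPM, and Ch25h was at 38.9, 44.5 and 42.9 RPM against 13.6, 16.5 and 17.7 RPM. Both were lower in all 2-HG(+) libraries, as Abca1 and Abcg1 were. Ch25h was at 0.826 to 2.94 RPM in the first experiment, and its groups overlapped.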

How the data were processed

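RNA-seq libraries (Ion AmpliSeq, which amplifies 1 target per gene) were aligned by the authors with TMAP to the AmpliSeq mouse transcriptome reference, and the AmpliSeqRNA plug-in gave the RPM the authors deposited, in a table for each experiment. 0 columns were left unmapped. RPM values were whole multiples of 1 read within 0.05 read for 100% of values, so whole reads and depths could be recovered. Log2(RPM + 1) was tested with limma 3.58.1 (trend) in R 4.3.3 over the 6 libraries of a comparison, where a gene averaged at least 1 RPM, and over the 12 libraries for the difference between comparisons. Benjamini-Hochberg adjustment covered all genes tested, with a threshold of 0.05. Alternatives were an added value of 0.1, a floor of 1 RPM, no filter, a filter at 10 RPM, quantile, 75th percentile and median-of-ratios scaling, an unmoderated test, limma with no trend, edgeR 4.0.16 and DESeq2 1.42.0 on the recovered reads, the replicate number as a block, each library left out and, chosen after seeing the data, 2 libraries left out together. A left-out fit leaves 2 libraries in an arm, and its spread is pooled over groups. Tests were checked on simulated data. Members and lists were chosen with earlier results of these data known. Library values were printed for members past the threshold with a log2 fold change of at least 0.5, and for the related list the 4 largest changes were named. Promoter sequences are RefSeq's and gene positions GENCODE M21's. A few genes of the pathway are not reported here.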

Additional observations from a re-analysis of the deposited data

Results flagged for a closer look

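The change in 2MUT differed from the change with 2-HG, by limma's test of the difference over 12 libraries, for 10 of the 29 members tested in both (34.5%, against 39.4% of all genes tested in both). On the log2 scale, as 2MUT change minus 2-HG change, the differences were 1.50 for Abca1, 1.46 for Sqle, -1.34 for Srebf2, -0.98 for Fads2, -0.95 for Cyp51, -0.92 for Fads1, -0.87 for Scd1, -0.84 for Stard4, -0.77 for Pmvk and -0.53 for Dhcr7. The experiments were sequenced to different depths and their tables list different entries, so experiment and treatment cannot be told apart in these differences. Markers of dividing cells, at 148 to 176 RPM in 2MUT against 606 to 716 in Control and at 520 to 591 RPM in 2-HG(+) against 288 to 313 in 2-HG(-) cells, also moved in opposite directions, and their part was not tested. With 3 libraries a group, no group was large enough for a test of single outlying libraries.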

How the results depend on the processing

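No called member changed sign under any alternative. In 2MUT 7 of the 12 calls (Sqle, Cyp51, Srebf2, Stard4, Abca1, Scd1 and Fads1) held in all 18 alternatives, with 2-HG 3 of the 7 (Abca1, Fads1 and Fads2) in all 19, and 9 of the 10 differences in all 25. Leaving out 1 library gave 2 to 4 members higher and 7 to 10 lower in 2MUT. With 2-HG it gave 2 to 6 higher and 1 to 2 lower. Over all genes the same fits gave 1271 to 1926 higher and 1484 to 1880 lower in 2MUT. With 2-HG they gave 1146 to 1745 higher and 1176 to 1580 lower. With all libraries these were 1826 and 1915 in 2MUT, and 1668 and 1737 with 2-HG. The signed change was higher in 2MUT than with 2-HG for 2 to 4 members and lower for 8 to 9. Over all genes it was higher for 1610 to 1972 and lower for 1609 to 1875. The unmoderated test called 2 members higher and 6 lower in 2MUT, with 1021 and 1223 over all genes. It lost Pmvk, Mvd, Lss and Ebp there (adjusted p = 0.077, 0.11, 0.083 and 0.14). With 2-HG it called 4 higher and 1 lower, with 1098 and 1139 over all genes. Whether same-numbered libraries were paired is not given in the sources used here. Their deviations had r of 0.0708, 0.0293 and 0.0319 in the first experiment and -0.457, -0.158 and 0.0572 in the second. These values cannot decide it, since the deviations within a group are tied to each other. With the replicate block, 4 members were higher and 10 lower in 2MUT, and 2 higher and 1 lower with 2-HG. Over all genes the block gave 1911 higher and 1987 lower in 2MUT, and 1217 higher and 1286 lower with 2-HG. Deviations of 2-HG(-) replicate 2 and 2-HG(+) replicate 1 went together (r = 0.48), as did those of 2-HG(-) replicate 1 and 2-HG(+) replicate 3 (r = 0.413). Without the former pair 7 members were higher and 2 lower with 2-HG, and over all genes 1902 were higher and 1680 lower. The causes of these shifts were not tested. Counting error is widest for members with few reads, such as Abcg1 in both experiments.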
